A study of Pan troglodytes with 217 samples.

Results

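The trophectoderm is the outer epithelium of the blastocyst, from which the placenta forms. A small network of transcription factors is known to set up and hold this fate in primates, among them the zinc finger proteins GATA2 and GATA3, the AP-2 proteins TFAP2A and TFAP2C, several homeobox proteins, the T-box protein TBX3 and the nuclear receptor NR2F2. The homeobox protein CDX2 is known from the young trophectoderm, and NR2F2 is used as a marker of trophectoderm that has matured next to the inner cell mass. Here the RNA levels of 10 such factors were described in single cells of chimpanzee blastoids, which are blastocyst-like structures made from stem cells. The factors were chosen by name, with earlier results of these data known. Each of the 10 matched 1 of the 33729 gene identifiers in the file.

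The cells came from naive pluripotent stem cells that had been kept with an inhibitor of PRC2, the complex that writes a repressive histone mark. They were then clustered and carried to day 4 through media with the MEK inhibitor PD, the TGF-beta receptor inhibitor A83, LPA and Y-27632. According to the study's methods the mural trophectoderm was trimmed off by hand, and it was dissociated in a drop of its own while the inner cell masses kept their polar trophectoderm. SMART-seq2, which reads whole cDNAs and does not count molecules, gave 1 library per cell. The labels do not tell which blastoid, cell line or trophectoderm region a cell came from, and several lines are described in the study. All cells therefore formed 1 sample without replicates, and no test between classes was possible. Differences below compare cells of this 1 sample only.

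Cells with at least 8000 detected genes were kept, and their totals ran from 1679888 to 25630392 reads with a median of 3960857. They formed 4 clusters in an analysis from which the 10 factors had been left out, so the factors' levels did not shape the classes. The clusters were named from lists of other markers, none of them a member. A pair of clusters of 72 and 39 cells was trophectoderm-like (57.5% of the kept cells, 95% interval 50.2% to 64.6%), 50 cells were epiblast-like (25.9%, 19.9% to 32.7%) and 32 cells were hypoblast-like (16.6%, 11.6% to 22.6%). Intervals of shares are exact (Clopper-Pearson). Copies of 1 cDNA molecule are read more than once, so the intervals of levels and folds below are too narrow even for counting error. They also leave out the spread between cells. Intervals of shares cover counting error only. Of the 11 trophectoderm markers, such as the keratins KRT8 and KRT18, 10 reached 1 CPM (reads of the gene per 1000000 reads of the cells) in the trophectoderm-like cells and CLDN4 did not. Of 7 amnion markers 5 were below 1 CPM in these cells, and 2 cells held 3 or more at 10 CPM.

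Trophectoderm-like cells were split by CCR7, a chemokine receptor gene known as a marker of the maturing polar trophectoderm. The 51 cells below 10 CPM are called early (26.4% of kept cells, 20.4% to 33.2%) and the 60 cells at or above it late (31.1%, 24.6% to 38.1%). CCR7 had no read in 44 of the early cells and reached at most 5.369 CPM in the other 7. In late cells it ran from 11.45 to 1310 CPM with a median of 163.8 CPM, and 5 late cells lay below 20 CPM. The larger trophectoderm-like cluster held 50 early and 22 late cells, and the smaller held 1 early and 38 late cells. Whether the split followed developmental time, the mural and polar regions or cell lines cannot be told apart with these labels. The median total was 3682620 reads in early, 4425386 in late, 3951119 in epiblast-like and 3978822 in hypoblast-like cells.

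Class levels in CPM were taken from reads summed over all cells of the class and have exact 95% Poisson intervals. Levels of single cells are given as the lowest, the median and the highest CPM. Transcript lengths were not used, so a level is compared only between classes for the same gene and not between genes. SMART-seq2 does not mark the strand, and reads of an overlapping antisense gene cannot be told from those of a factor.

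GATA3 (ENSPTRG00000023695), an early trophoblast regulator, was at or above 10 CPM in every early and every late cell. Its class level was 655 CPM (652 to 659) in early and 720 CPM (717 to 723) in late cells, against 70.4 CPM (69.3 to 71.5) in epiblast-like and 58.5 CPM (57.2 to 59.8) in hypoblast-like cells. Single early cells ran from 17.08 through 632 to 1400 CPM, and late cells from 164.8 through 641 to 1619 CPM. The early and late ranges overlapped almost completely, with a late over early fold of 1.10 (1.09 to 1.11) and close medians. Epiblast-like cells ran from 0 through 5.74 to 749 CPM, and 18 of them were above the lowest trophectoderm-like cell. Hypoblast-like cells ran from 0 through 28.8 to 353 CPM.

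GATA2 (ENSPTRG00000015355), its relative, was likewise at 10 CPM or more in every early and late cell. In early cells it ran from 22.96 through 192.2 to 619 CPM, and late cells from 114.9 through 278 to 2108 CPM. In epiblast-like cells GATA2 ran from 0 through 5.83 to 482 CPM and hypoblast-like cells from 0 through 34.9 to 206.2 CPM. The level over all trophectoderm-like cells, 306 CPM (304 to 307), was 8.35 times (8.16 to 8.54) that of epiblast-like and 6.88 times (6.70 to 7.06) that of hypoblast-like cells. Between late (394 CPM) and early cells (194.2 CPM) the fold was 2.03 (2.00 to 2.05), but 1.45 between cell medians. Without the single highest late cell, which held 11.7% of the class's GATA2 reads, the fold was 1.83.

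TFAP2C (ENSPTRG00000013654) encodes an AP-2 protein that naive pluripotent cells are also known to express. It reached 10 CPM in all 51 early, 60 late and 50 epiblast-like cells and in 27 of 32 hypoblast-like cells (84.4%, 67.2% to 94.7%). Epiblast-like cells ran from 46.73 through 176.9 to 550 CPM and early cells from 68.28 through 260.97 to 680 CPM. TFAP2C was the only one of the 10 factors whose level in trophectoderm-like cells was under 2-fold that of epiblast-like cells, at 1.89 (1.87 to 1.91). With median-of-ratios scaling in place of read totals, which shifts every log2 fold of this comparison by 0.19, it passed 2-fold, as it also did when cells down to 7000 genes were let in. In hypoblast-like cells its level was 107.4 CPM, below the 187.8 CPM of epiblast-like cells.

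TFAP2A (ENSPTRG00000017714), the other AP-2 gene, was more scattered. Its levels ran in early cells from 0 through 7.38 to 114.1 CPM, in late cells from 0 through 21.3 to 394 CPM, and in epiblast-like cells from 0 through 5.56 to 169.7 CPM. It reached 10 CPM in 23 of 51 early (45.1%, 31.1% to 59.7%), 42 of 60 late (70%, 56.8% to 81.2%), 19 of 50 epiblast-like (38%, 24.7% to 52.8%) and 6 of 32 hypoblast-like cells. Its class level in early cells, 11.85 CPM (11.4 to 12.3), was close to the 12.39 CPM (11.9 to 12.9) of epiblast-like cells, and only the late level of 43.3 CPM (42.5 to 44) stood above both. The late over early fold was 3.65 (3.50 to 3.81).

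**Figure D1:**
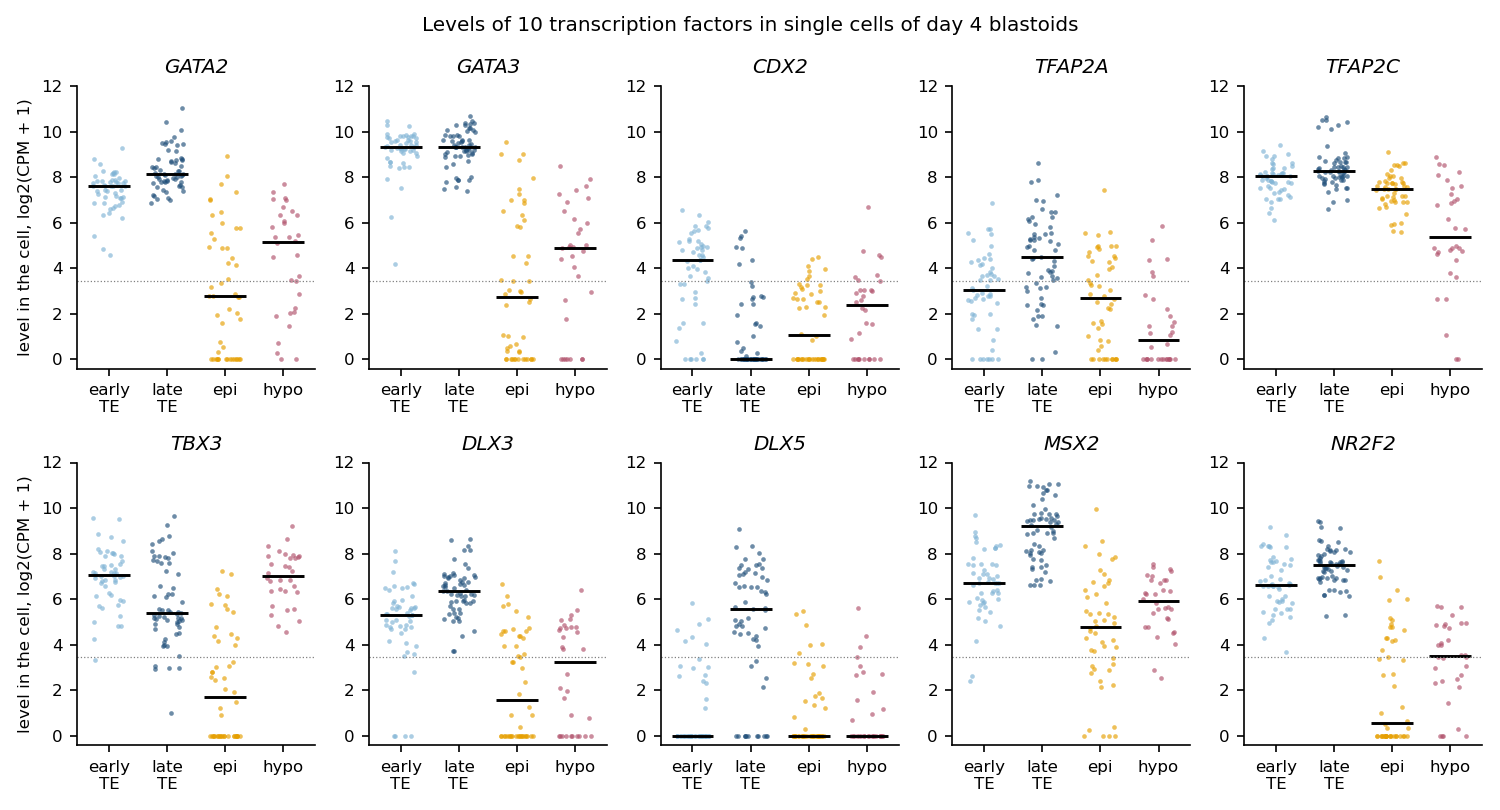
Level of each of the 10 factors in single cells, as log2(CPM + 1), in 51 early and 60 late trophectoderm-like (TE), 50 epiblast-like (epi) and 32 hypoblast-like (hypo) cells. Each point is a cell, black lines are class medians and the dotted line marks 10 CPM. GATA2, GATA3, TFAP2C and NR2F2 lie above the dotted line in all trophectoderm-like cells, CDX2 is higher in early and DLX5 and MSX2 are higher in late cells, and TBX3 is as high in hypoblast-like as in trophectoderm-like cells.

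CDX2 (ENSPTRG00000043330), a caudal-type homeobox gene of the young trophectoderm, was the factor with the clearest bias to early cells. Its CPM in early cells ran from 0 through 19.41 to 92.1 and in late cells from 0 through 0 to 48.7 CPM. It reached 10 CPM in 33 of 51 early cells (64.7%, 50.1% to 77.6%) and 7 of 60 late cells (11.7%, 4.82% to 22.6%). The class level was 25.1 CPM (24.4 to 25.7) in early and 4.45 CPM (4.21 to 4.70) in late cells, 5.63 times higher in the early class (5.3 to 6). After thinning every cell to 2532312 reads, which left out 20 shallower cells, the shares were 32 of 45 and 7 of 55 cells. The late level was close to the 4.35 CPM (4.08 to 4.64) of epiblast-like cells, of which 27 of 50 had a read and 7 reached 10 CPM. Hypoblast-like cells were at 9.11 CPM (8.60 to 9.65), but 1 cell at 101.4 CPM held 41.2% of those reads.

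DLX5 (ENSPTRG00000019426), a distal-less homeobox gene, had the opposite pattern. DLX5 in early cells ran from 0 through 0 to 56.1 CPM and in late cells from 0 through 45.9 to 548 CPM, and 27 of the 60 late cells were above every early cell. It reached 10 CPM in 7 of 51 early (13.7%, 5.70% to 26.3%) and 45 of 60 late cells (75%, 62.1% to 85.3%), and in 6 of 45 and 42 of 55 after thinning. The class level was 5.16 CPM (4.87 to 5.47) in early and 89.5 CPM (88.4 to 90.6) in late cells, a fold of 17.3 (16.3 to 18.4). Epiblast-like cells were at 3.30 CPM (3.06 to 3.55) and hypoblast-like cells at 4.35 CPM (4 to 4.72). In the latter 1 cell at 47.3 CPM held 48.5% of the DLX5 reads, and the level without it was 2.35 CPM. The high level of DLX5 in the trophectoderm-like class therefore rested on its late cells.

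MSX2 (ENSPTRG00000017548), a homeobox repressor known from trophoblast, was detected throughout the trophectoderm-like class but was far higher late. The early range went from 4.27 through 104.9 to 824 CPM and the late range from 96.99 through 599 to 2326 CPM. The fold between the class levels of 743 CPM (740 to 746) and 155.65 CPM (154.03 to 157.27) was 4.78 (4.72 to 4.83). The lowest late cell was close to the early median, and 17 late cells were above every early cell. Epiblast-like cells ran from 0 through 26.4 to 998 CPM and hypoblast-like cells from 4.84 through 59.8 to 186.1 CPM. MSX2 was thus at 10 CPM or more in 35 of 50 epiblast-like (70%, 55.4% to 82.1%) and 30 of 32 hypoblast-like cells (93.8%, 79.2% to 99.2%).

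DLX3 (ENSPTRG00000009386), a distal-less gene needed for the mouse placenta, was already present in early cells. Early cells ran from 0 through 38.3 to 277 CPM and late cells from 12.17 through 80.3 to 396 CPM. It reached 10 CPM in 46 of 51 early and in all 60 late cells. The late over early fold lay on the 2-fold line, with an interval from 1.95 to 2.04, and fell just short of it. Every trophectoderm-like cell with DLX5 at 10 CPM also had DLX3 at 10 CPM, in 7 early and 45 late cells. With DLX3 in all 60 late and 46 of 51 early cells, this overlap was largely given. DLX3 without DLX5 was seen in 39 of 51 early and 15 of 60 late cells. Of 50 epiblast-like cells, 3 had both and 3 had DLX5 without DLX3.

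NR2F2 (ENSPTRG00000044693), the gene of the nuclear receptor COUP-TFII, reached 10 CPM in every early and every late cell. Early cells ran from 11.88 through 98.95 to 571 CPM, and late cells from 37.1 through 178.2 to 695 CPM. The fold from early (148.45 CPM, 146.87 to 150.04) to late (205.35 CPM, 203.7 to 207.01) was 1.38 (1.36 to 1.4), and 1.79 between cell medians. It was one of the factors most biased to the trophectoderm-like class, at 11 times (10.7 to 11.4) the epiblast-like and 12.1 times (11.6 to 12.7) the hypoblast-like level. Of the trophectoderm-like cells 98 lay above the highest hypoblast-like cell, at 50.58 CPM. In epiblast-like cells the median was 0.506 CPM and the highest 204.1 CPM.

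TBX3 (ENSPTRG00000023749), a T-box repressor, was shared with the hypoblast-like class. Levels in early cells were spread from 9.21 through 132.9 to 767 CPM, late cells from 0.981 through 41.5 to 796 CPM, and hypoblast-like cells from 22.8 through 130.6 to 598 CPM. All 32 hypoblast-like cells reached 10 CPM, as did 50 of 51 early and 55 of 60 late cells, against 15 of 50 epiblast-like cells (30%, 17.9% to 44.6%). The hypoblast-like level of 148.83 CPM (146.73 to 150.95) lay between those of early cells (163.54 CPM, 161.88 to 165.21) and late cells (111.99 CPM, 110.77 to 113.22). TBX3 was 1.46 times (1.44 to 1.48) higher in early than in late cells by class levels, and 3.15 times by cell medians with 1 CPM added. Of the 60 late cells 42 were below the early median.

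Read across the 10 factors, 9 were at least 2-fold higher in trophectoderm-like than in epiblast-like cells, and 0 were at least 2-fold lower. Called here means a fold of 2 with at least 1 CPM in the higher class, and over all genes with at least 1 CPM in either class 11.6% were higher and 23.6% lower by this rule. The factors were chosen as trophectoderm genes with earlier results of these data known. Their counts here and below were thus partly set by that choice and are no test. The median log2 fold of the 10, on CPM with 1 added, was 2.72, against -0.14 over those genes. By class levels the folds were 15.9 (14.7 to 17.1) for DLX5, 11 for NR2F2, 9.82 (9.66 to 9.98) for GATA3, 8.35 for GATA2, 7.27 (7.05 to 7.51) for TBX3, 6.42 (6.17 to 6.68) for DLX3 and 6.35 (6.25 to 6.45) for MSX2. By cell medians with 1 CPM added the order was another one, with 100 for NR2F2, 95.2 for GATA3, 33.4 for GATA2, 29 for TBX3, 19.8 for DLX3, 9.57 for MSX2 and 8.38 for DLX5. CDX2 (3.11, 2.9 to 3.33) and TFAP2A (2.37, 2.28 to 2.48) were nearer to the line, and both fell below it when cell medians were compared. Against hypoblast-like cells 8 of the 10 were higher and 0 lower (background 13.8% and 15.3%), with a median log2 fold of 2.59 against 0.02. The exceptions were CDX2, at 1.49 (1.4 to 1.58), and TBX3, at 0.905 (0.891 to 0.920). Without the 1 hypoblast-like cell at 101.4 CPM, the hypoblast-like level of CDX2 was 5.57 CPM and its fold 2.43, so that 9 of the 10 passed 2-fold. By cell medians with 1 CPM added, CDX2 was lower in trophectoderm-like than in hypoblast-like cells, at a ratio of 0.734.

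**Figure D2:**
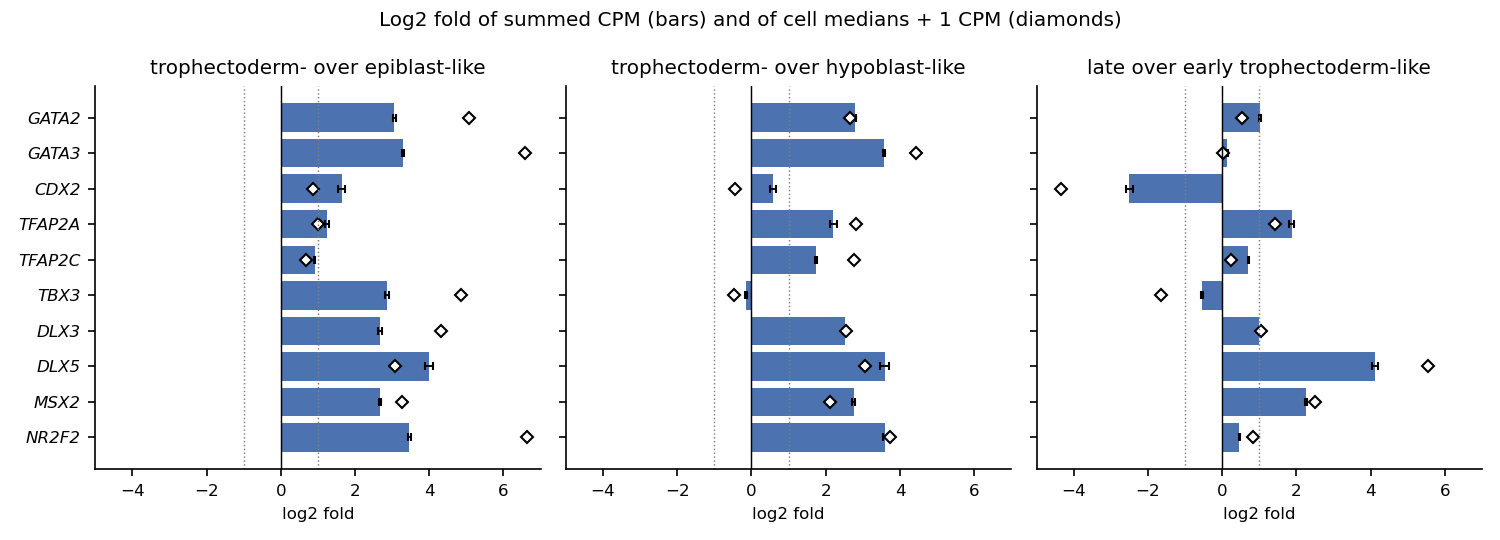
Log2 fold of each factor between classes, from summed CPM (bars, with 95% counting intervals) and from cell medians with 1 CPM added (diamonds). Dotted lines mark a 2-fold difference. All bars but that of TFAP2C pass the line against epiblast-like cells, all but CDX2 and TBX3 pass it against hypoblast-like cells (CDX2 is at 2.43-fold without 1 hypoblast-like cell), and between late and early cells CDX2 points to the early and DLX5 and MSX2 to the late class.

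Within the trophectoderm-like class, GATA2, TFAP2A, DLX5 and MSX2 were at least 2-fold higher in late cells (4 of 10, background 10.1%) and CDX2 was at least 2-fold higher in early cells (1 of 10, background 7.13%). GATA2 was on the line, since it dropped below 2-fold with CCR7 thresholds of 5 and 20 CPM, with other cell filters and with median-of-ratios scaling. TFAP2A dropped to 0.84 on the log2 scale when cells with 7000 to 8000 genes were let in, and DLX5 from 4.11 to 3.2. DLX5 and MSX2 stayed past 2-fold toward late cells, and CDX2 toward early cells, in each of the 15 settings in which their folds were recomputed. Of the remaining factors, GATA3, TFAP2C, DLX3 and NR2F2 were higher in late cells by 1.10 to 2 times and TBX3 was higher in early cells. Between the inner classes, TBX3 (8.04, 7.77 to 8.32) and CDX2 (2.09, 1.92 to 2.28) were at least 2-fold higher in hypoblast-like than in epiblast-like cells (background 7.42%), and 0 factors were at least 2-fold higher in epiblast-like cells (background 18.9%). TFAP2A, at 1.94 times the hypoblast-like level in epiblast-like cells, passed 2-fold in 4 settings and was at 3.57 by cell medians, and TFAP2C, at 1.75, was at 4.23 by cell medians. Without the 1 cell rich in CDX2, its fold was 1.28. Toward hypoblast-like cells, NR2F2 (7.52), GATA2 (5.26), GATA3 (4.43), DLX3 (3.4) and MSX2 (2.22) also passed 2-fold by cell medians with 1 CPM added.

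CDX2 and DLX5 also differed along the CCR7 range within the late class. Of the 20 late cells with CCR7 below 100 CPM, 7 had CDX2 at 10 CPM (35%, 15.4% to 59.2%) and 8 had DLX5 (40%, 19.1% to 63.9%). Of the 40 with CCR7 at 100 CPM or more, 0 had CDX2, which allows a share of up to 7.5%, and 37 had DLX5 (92.5%, 79.6% to 98.4%). The line of 100 CPM was drawn after the values had been seen. TBX3 had medians of 144.5 and 34.9 CPM in these sets of cells and MSX2 of 274 and 703 CPM. GATA3 had medians of 798 and 583 CPM and was at 10 CPM or more in all 60 cells.

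Few cells held both CDX2 and DLX5, but only 7 of 51 early cells had DLX5 and only 7 of 60 late cells had CDX2 at 10 CPM. These low shares alone limit the number of cells with both. Spearman's rho of the pair was -0.11 over early and -0.45 over late cells. At 10 CPM, 28 of 51 early cells had CDX2 without DLX5 (54.9%, 40.3% to 68.9%), 2 had DLX5 without CDX2, 5 had both and 16 had neither. Of 60 late cells, 42 had DLX5 without CDX2 (70%, 56.8% to 81.2%), 4 had CDX2 without DLX5, 3 had both and 11 had neither. Over late cells alone, Spearman's rho with CCR7 was -0.51 for CDX2, -0.45 for TBX3, -0.29 for GATA3, 0.3 for DLX3, 0.48 for MSX2 and 0.66 for DLX5, and between 0.02 and 0.15 for the other factors, while that of each factor with the total reads of the cell was between -0.13 and 0.16 (n = 60 cells). Correlations are descriptions over cells that share 1 sample, and CCR7 itself set the class.

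**Figure D3:**
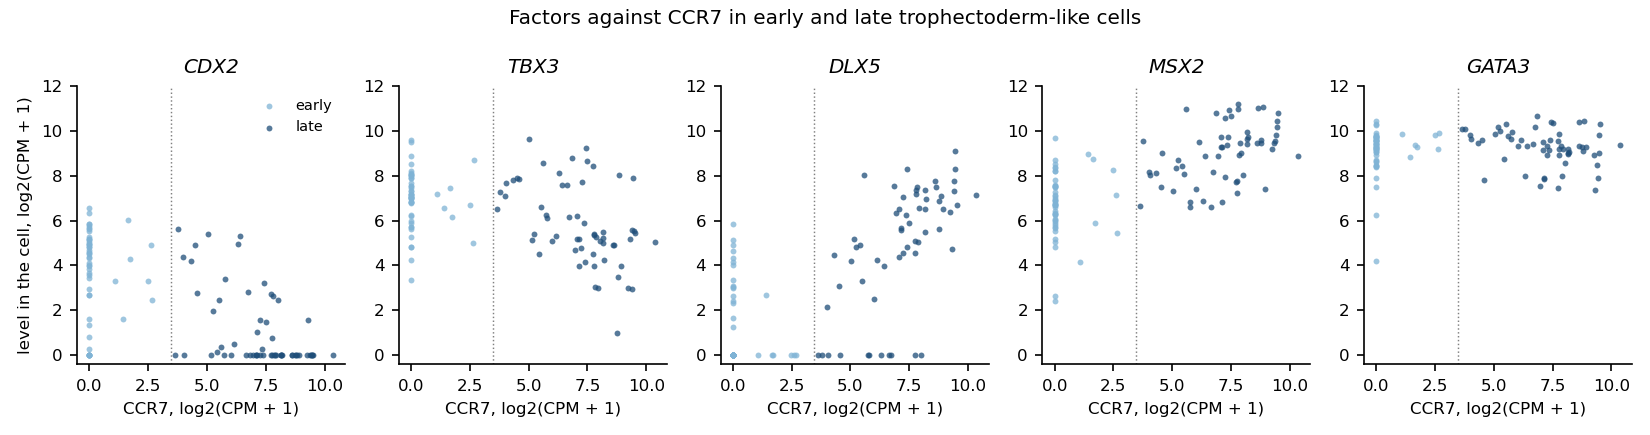
Level of 5 factors against CCR7 in early and late trophectoderm-like cells, both as log2(CPM + 1), with 1 point per cell and the dotted line at 10 CPM of CCR7. CDX2 at 10 CPM or more is found in 33 of 51 early cells and in 0 of the 40 cells with CCR7 at 100 CPM or more, DLX5 and MSX2 are higher where CCR7 is high, and GATA3 is high over the whole range.

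The late cells richest in MSX2 stood out for several factors at once. The 17 late cells above the early maximum of MSX2 ran from 841 through 1632 to 2326 CPM. All 17 had DLX5 at 10 CPM or more, with a median of 146.04 CPM against 22.7 CPM in the other 43 late cells. GATA2 had medians of 586 and 254.4 CPM, TFAP2C of 532 and 265.9 CPM, and DLX3 of 125.2 and 75 CPM in these sets. CDX2 reached 10 CPM in 0 of the 17 (an upper limit of 17.6%) and in 7 of the 43. Beside the 10, GCM1, a regulator of placental syncytium, had medians of 185.5 and 32.5 CPM, and OVOL1, a zinc finger gene of the same lineage, of 474 and 40.9 CPM. The CCR7 medians were 220.3 and 133.4 CPM and the median totals 4521093 and 4068254 reads. The set was chosen on these values, so these contrasts are descriptions.

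Most trophectoderm-like cells carried most of the factors together. The number of the 10 at 10 CPM or more ran from 6 to 10 with a median of 8 in early cells, and from 7 to 10 with a median of 9 in late cells. Over all trophectoderm-like cells the median was 8. GATA2, GATA3 and TFAP2C were all at 10 CPM in every one of these cells, and together with TFAP2A in 23 of 51 early and 42 of 60 late cells. All 10 factors were found at 10 CPM in 4 early, 2 late and 1 hypoblast-like cell. Epiblast-like cells ran from 1 to 9 factors with a median of 3, and hypoblast-like cells from 2 to 10 with a median of 5.5. The classes overlapped in this number, since 9 epiblast-like and 5 hypoblast-like cells had 8 or more.

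**Figure D4:**
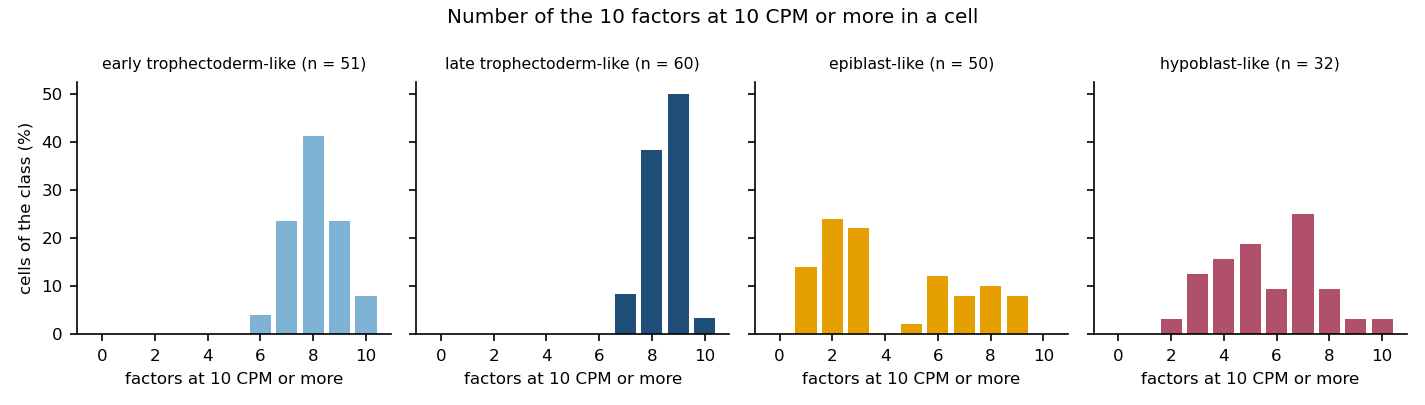
Share of the cells of each class, in percent, by the number of the 10 factors at 10 CPM or more in the cell. The trophectoderm-like classes begin at 6 (early) and 7 (late) factors, while epiblast-like cells spread from 1 to 9 with a median of 3 and hypoblast-like cells from 2 to 10.

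Epiblast-like cells were split in the expression of several of these factors. GATA3 reached 10 CPM in 20 of the 50 cells (40%, 26.4% to 54.8%), and in 10 of these it reached 100 CPM. Of the 20, 18 also had GATA2, 15 had TBX3, 15 had NR2F2, 15 had DLX3 and 11 had TFAP2A at 10 CPM. Of the other 30 cells, 2 had GATA2, 0 had TBX3 (an upper limit of 10%), 2 had NR2F2, 5 had DLX3 and 8 had TFAP2A. CDX2 was at 10 CPM in 4 of the 20 and 3 of the 30 cells and DLX5 in 3 of each. MSX2 was at 10 CPM in 19 of the 20 and 16 of the 30 cells, and TFAP2C in all 50. The number of factors at 10 CPM had a median of 7 (3 to 9) in cells with GATA3 and of 2 (1 to 6) in the others.

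Other markers moved with GATA3 in these epiblast-like cells. POU5F1, the gene of OCT4, ran from 501 through 1043 to 2082 CPM in the cells with GATA3 and from 540 through 1552 to 2707 CPM in the others. NANOG had medians of 185.3 and 261.6 CPM. KRT18 had medians of 1049 and 491 CPM, and the sum of the 11 trophectoderm markers ran from 874 through 2823 to 6665 CPM and from 301 through 1310 to 3790 CPM. A median of 5 of the 11 (4 to 8) reached 10 CPM in the first set and of 4 (3 to 6) in the second. In trophectoderm-like cells this sum ran from 3724 through 9035 to 21570 CPM. Amnion markers did not follow, with 3 or more at 10 CPM in 1 of the 20 and 3 of the 30 cells. Median totals were 3896960 and 3951119 reads. Doublet calling was not run, and whether mixed wells or RNA from lysed cells had a part in these levels was not tested.

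Hypoblast-like cells had GATA3 at 10 CPM in 22 of 32 cases (68.8%, 50% to 83.9%). GATA2 was at 10 CPM in 18 of these 22 and in 3 of the other 10, and NR2F2 in 14 and 3. TBX3 was at 10 CPM in all cells of both sets, and MSX2 in 22 and 8. PDGFRA, a marker of hypoblast, had medians of 286 and 600 CPM and KRT18 of 974 and 536 CPM. POU5F1 had medians of 485 and 219.4 CPM and NANOG of 13.3 and 2.58 CPM. The sum of the trophectoderm markers ran from 1367 through 2599 to 7515 CPM and from 625 through 1610 to 3233 CPM, and the median totals were 4454205 and 3109657 reads. Their part in the GATA3 levels was not tested.

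More pairs of factors were correlated in the epiblast-like and hypoblast-like classes than in the early and late ones. No share of all gene pairs was computed for each class as a background, and the classes differ in their number of cells. Whether the contrast is particular to these factors was therefore not tested. Over the 50 epiblast-like cells 17 of 45 pairs had a Spearman's rho above 0.5, led by GATA2 and TBX3 (0.86), and the median of all pairs was 0.42. Over the 32 hypoblast-like cells 9 pairs passed 0.5, led by GATA2 and NR2F2 (0.66), and the median was 0.33. Over the 51 early cells 3 pairs passed 0.5, led by GATA2 and DLX3 (0.62), and the median was 0.062. Over the 60 late cells 4 pairs passed 0.5, led by DLX5 and MSX2 (0.75), with TFAP2C and MSX2 at 0.68, and the median was 0.19. CDX2 and DLX5 were the lowest pair in late cells, at -0.45.

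**Figure D5:**
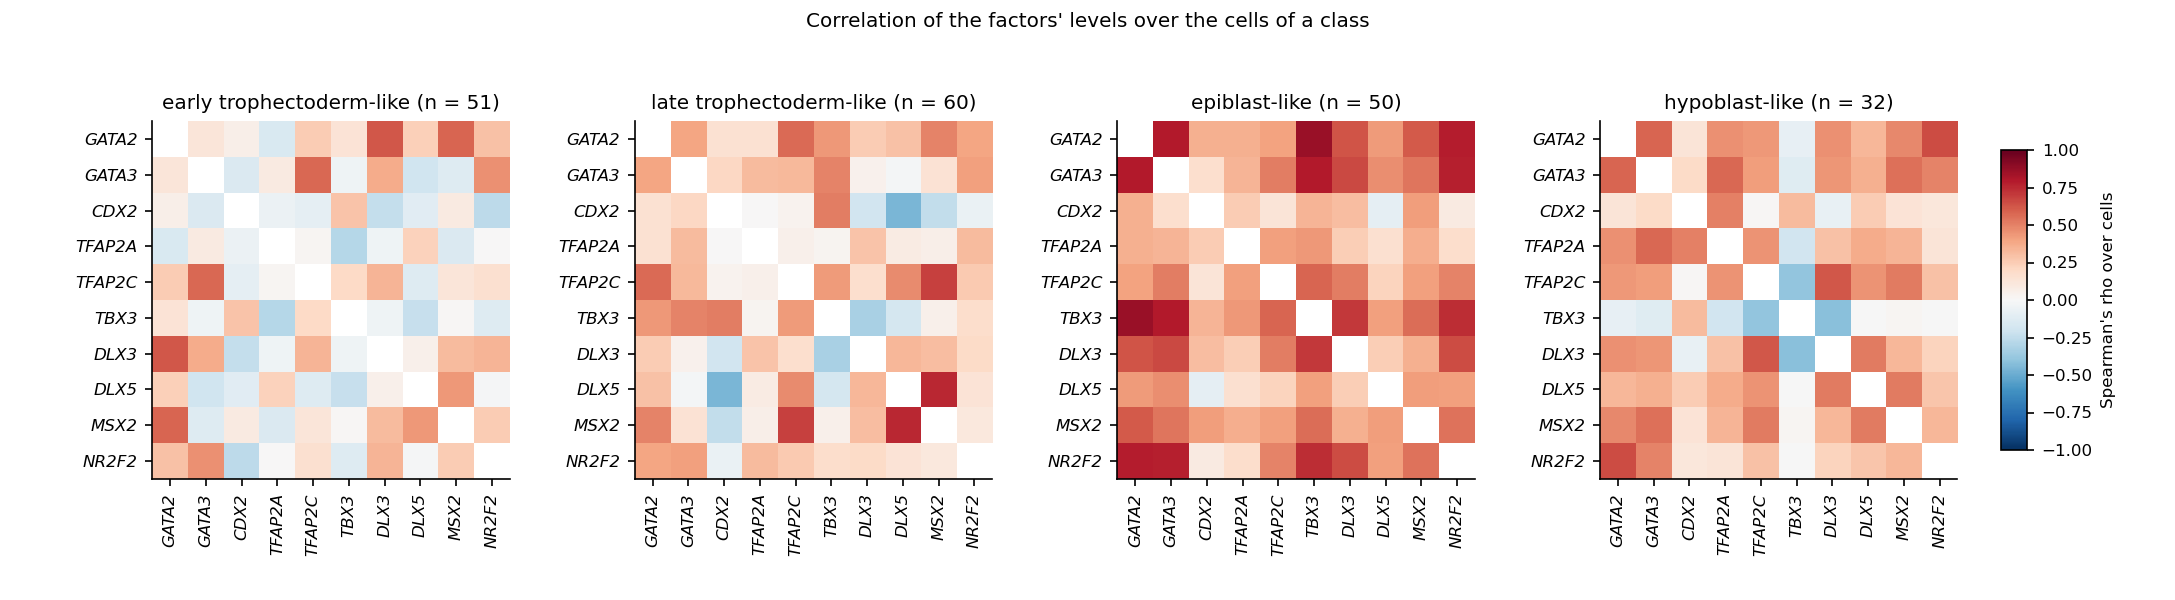
Spearman's rho between the levels of the 10 factors over the cells of the early, late, epiblast-like and hypoblast-like classes, with red for positive and blue for negative values. Over epiblast-like cells 17 of 45 pairs are above 0.5 and over hypoblast-like cells 9, against 3 in early and 4 in late cells, where DLX5 with MSX2 (0.75) is highest and CDX2 with DLX5 (-0.45) lowest. A background over all gene pairs was not computed.

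For each factor the genes nearest to it over all trophectoderm-like cells were taken from 9420 genes with a read in at least 50% of those cells. MSX2 had the closest companions, CCNE1 (rho 0.82), the gene of cyclin E1, GCM1 (0.81) and PPP1CB (0.81). DLX5 was followed by MSX2 and PPP1CB (both 0.78) and ADGRG1 (0.76). CDX2 had GABARAPL1, TUBB4A and S100A16 at 0.72 each, TBX3 had UGCG (0.75), GDF15 (0.67) and DYSF (0.65), and GATA2 had TLE3 (0.68), MIER1 and MSX2 (both 0.65). DLX3 was nearest to CCND3 and ARID3A (both 0.65) and SEPTIN9 (0.62), NR2F2 to GRHL1 (0.57), TEAD3 (0.54) and PLEKHA6 (0.52), and TFAP2C to CDK2 (0.55), AEBP2 (0.54) and JUND (0.53). TFAP2A, with DLX4 (0.51), ESRP1 (0.49) and CEBPB (0.46), and GATA3, with AMOTL2 (0.49), TET2 (0.47) and CSRNP2 (0.43), had the loosest. Early and late cells were pooled here, so a gene that differs between them scores high with DLX5, MSX2 and CDX2.

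Of 32 other trophoblast transcription regulators matched in the file, 28 had at least 1 CPM in trophectoderm-like or epiblast-like cells. Of these, 19 were at least 2-fold higher in the trophectoderm-like class (background 11.6%) and 1, EOMES, was lower (background 23.6%). EOMES was at 0.182 against 1.08 CPM, with a read in 4 trophectoderm-like and 4 epiblast-like cells. Among those at 10 CPM or more, the largest folds were those of VGLL1, a cofactor of TEAD proteins (316 against 11.3 CPM, 27.9-fold), TEAD1 (12.8), EPAS1 (11.4), ELF4 (8.27) and GRHL2 (8.19). Between late and early cells 16 of 29 measured were higher late and 5 were higher early (background 7.13%), namely KLF5, KLF6, ELF3, MSX1 and MEIS1. The largest folds toward late cells were those of SP6 (25), BHLHE40 (20.1), the hypoxia factor EPAS1 (15.8), OVOL1 (10.5) and GCM1 (10.2, from 8.46 to 86.7 CPM). DLX5 and MSX2 shared the late direction with 16 of the 29 (background 10.1%). This list and that of the paralogs below were chosen with earlier results of these data known, so their counts are no test.

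The close relatives of the 10 factors were mostly low. Of 19 paralogs, 8 had at least 1 CPM in trophectoderm-like or epiblast-like cells, and GATA6, TBX2, DLX4, DLX6 and MSX1 were at least 2-fold higher in the former (5 of 8, background 11.6%). Between late and early cells 3 of 8 were higher late, namely GATA5, TBX2 and DLX6 (background 10.1%), and 3 were higher early, namely GATA6, CDX1 and MSX1 (background 7.13%). GATA6, known from hypoblast and young trophectoderm, was at 164.5 CPM in early, 57.6 CPM in late, 33.97 CPM in epiblast-like and 306 CPM in hypoblast-like cells, so that it was higher in early than in late cells like CDX2 and TBX3. CDX1 was at 8.07 CPM in early and 1.84 CPM in late cells, and MSX1, unlike MSX2, at 2.37 and 0.99 CPM. GATA5 went from 0.36 to 1.16 CPM. DLX6, the gene next to DLX5 in the chimpanzee annotation, went from 1.01 to 5.58 CPM between early and late cells, a fold of 5.52, and TBX2 from 4.25 to 10.5 CPM. DLX4, which neighbours DLX3, went from 18.4 to 31.7 CPM, a fold of 1.72. NR2F6, the relative of NR2F2, was at 54.8 CPM in trophectoderm-like and 46.1 CPM in epiblast-like cells, a fold of 1.19, against 11 for NR2F2.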

How the data were processed

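The authors deposited raw read counts for 217 single cells and 33729 chimpanzee Ensembl genes, without normalization. By the study's methods, paired SMART-seq2 reads were trimmed with FastP and aligned and counted with STAR on the chimpanzee genome; the processing notes of the labels name Trim Galore 0.6.6, STAR 2.7.7a and GRCh38 for the whole series, without a role. Symbols came from a table covering 18783 identifiers, and gene neighbours from the RefSeq table of assembly NHGRI_mPanTro3-v2.0_pri. That assembly is not the build of the counts, so no coordinates or sequences were used.

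Cells with at least 4000 reads and 8000 detected genes were kept (193; 24 were left out), which is more than the study analysed. Scanpy 1.11.5 scaled the counts to the median total and took log1p values of 15794 genes with a read in at least 20 cells, the 10 factors left out. Leiden clustering (leidenalg 0.10.2) used 50 components, 30 neighbours, resolution 1 and seed 0. Clusters took the name of the epiblast, hypoblast or trophectoderm list with the highest mean standardized level, with at least 3 markers at 1 CPM. TDGF1 and CEBPA had no identifier, and identifiers sharing a symbol were summed in the lists. Totals ran from 1679888 to 25630392 reads, and CPM and shares have exact intervals at 95% that treat each read or cell as independent. A count of 0 is given with a limit of 3 counts. With 1 sample there was no test. The fold code was tested on simulated counts. The members and gene lists were chosen with earlier results of these data known. Of the related lists, the text names up to 5 genes at 10 CPM or more with the largest fold in either comparison, and the genes behind counts of 5 or fewer. CDX1 and DLX6, and GCM1 and OVOL1 beside MSX2, were chosen after their values were seen. Each factor's 3 nearest genes are by Spearman's rho on log2(CPM + 1). Intervals were computed with scipy 1.17.1, tables with pandas 2.3.3 and numpy 2.4.6, and figures with matplotlib 3.10.9 in Python 3.11.15.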

Additional observations from a re-analysis of the deposited data

How the results depend on the processing

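The results were recomputed with other genes in the clustering, cell filters, resolutions, scalings, summaries over cells, folds, CCR7 and cell thresholds, and thinned cells, and, as alternatives chosen after seeing the data, without the deepest cell of each class or the cell richest in the gene in the higher or in the lower class. Of the recomputed class shares, counts of factors, median number of factors per cell and share of cells with GATA3, all but 8 values stayed within the counting interval, the spread over cells or 1.5 times the count. The number of factors at least 2-fold higher in early than in late cells went from 1 to 2 with cell medians, which added TBX3, and the number higher in late cells from 4 to 2 with at least 7000 detected genes. Of factors higher in hypoblast-like than in epiblast-like cells, 2 became 7 with cell medians and 1 with a fold of 3 or without the cell richest in the gene in the hypoblast-like class. In the opposite direction 0 factors passed, but TFAP2A did with cell means, cell medians, thinned cells and without the richest hypoblast-like cell, and TFAP2C with cell medians. Without the richest cell of the lower class, the number higher in trophectoderm-like than in hypoblast-like cells went from 8 to 9, which added CDX2, and the number higher in late than in early cells from 4 to 5, which added DLX3. The fold of DLX5 over hypoblast-like cells then went from 12 to 22.3. The median number of factors per trophectoderm-like cell went from 8 to 9 at 1 CPM and to 6 at 50 CPM, and the share of epiblast-like cells with GATA3 from 40% to 60% at 1 CPM. The causes were not tested, apart from those that the threshold itself sets. Of the recomputed log2 folds of single factors, 30 moved by more than 1.5 times and 510 did not. No fold of a factor past 2-fold changed its direction. Among folds short of it, that of CDX2 between trophectoderm-like and hypoblast-like cells went from 0.57 to -0.45 on the log2 scale with cell medians, that of TBX3 between them from -0.14 to 0.04 with at least 7000 detected genes, and those of GATA2, GATA3, DLX3, DLX5, MSX2 and NR2F2 between hypoblast-like and epiblast-like cells changed sign in at least 1 setting each. No paired analysis was possible because the cells form 1 sample, and there is no replicate to leave out. Thinning moved the share of cells at 10 CPM from 64.7% to 71.1% for CDX2 in early cells, and in late cells from 75% to 76.4% for DLX5 and from 70% to 72.7% for TFAP2A. Having 1 sample without replicates limits every difference between classes.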
